A study of Homo sapiens with 17 samples.

Results

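The 10 genes GAS5, ZFAS1, SNHG1, SNHG5, SNHG6, SNHG7, SNHG8, SNHG12, SNHG15 and SNHG16 are noncoding host genes of small nucleolar RNAs (snoRNAs). They were chosen by symbol, and all 10 were found among the 19222 genes of the 1 h table and in both tables of the 2 h experiment. The study treated HEK-293T cells, a human embryonic kidney line, with emetine, an alkaloid that blocks translation elongation by the ribosome. RNA was measured by TimeLapse sequencing (TL-seq), in which the uridine analog 4-thiouridine (s4U) enters RNA made during the incubation and is chemically recoded, so that it is read as a T-to-C conversion. The 1 h experiment held 8 libraries. In 3 of them cells were untreated and in 3 they received 1.8 µM emetine, all with 500 µM s4U for the same 1 h, and 1 untreated and 1 emetine-treated library had no s4U. The 2 h experiment held 9 libraries, 3 each of untreated cells, 1.8 µM emetine and 240 µM emetine, labeled as given 250 µM s4U. All cells were of this 1 line and carried no other change that the labels record.

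A snoRNA host gene carries snoRNAs in its introns. The snoRNAs are cut out of the introns after splicing, and the joined exons leave as a spliced, polyadenylated RNA. Many such RNAs hold only short open reading frames and are textbook targets of nonsense-mediated decay, a pathway that needs translation to find a stop codon lying upstream of exon junctions. Many also start with a run of pyrimidines (a 5′-terminal oligopyrimidine start), as the mRNAs of ribosomal proteins do.

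The start of each gene is shown because this is where such a run would lie. Each line holds 10 bases before and 20 bases from the RefSeq start (GRCh38.p14), 5′ to 3′ on the strand of the gene. Capitals mark a C followed by at least 4 more pyrimidines that begins within 5 bases of the start, searched on that strand alone.
GAS5: tcatgaattcagatgtgtttattttggagc
ZFAS1: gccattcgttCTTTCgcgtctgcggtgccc
SNHG1: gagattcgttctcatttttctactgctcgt
SNHG5: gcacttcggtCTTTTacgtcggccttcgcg
SNHG7: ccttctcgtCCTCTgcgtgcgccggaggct
SNHG8: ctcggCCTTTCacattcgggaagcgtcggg
SNHG12: gcttcagcgCCCTTTCTCCCCgccgcattc
SNHG16: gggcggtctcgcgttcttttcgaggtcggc

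The windows lie at chr1:173869026-173869055 (minus strand) for GAS5, chr20:49278632-49278661 (plus) for ZFAS1, chr11:62855866-62855895 (minus) for SNHG1, chr6:85678714-85678743 (minus) for SNHG5, chr9:136728165-136728194 (minus) for SNHG7, chr4:118278752-118278781 (plus) for SNHG8, chr1:28581854-28581883 (minus) for SNHG12 and chr17:76557754-76557783 (plus) for SNHG16. A run was found in 5 of these 8 windows, in ZFAS1, SNHG5, SNHG7, SNHG8 and SNHG12, and in 19.7% of 35116 promoters searched the same way. The longest had 12 bases, in SNHG12. GENCODE 44 places SNHG15 at chr7:44983019-44986961 and SNHG6 at chr8:66920561-66926398, both on the minus strand. The RefSeq start of GAS5 lies upstream of its GENCODE model. Its window does not reach the GENCODE start, so it tells nothing of a run there. Among the windows only that of SNHG7 holds the GENCODE start of its gene. In SNHG16 a run of this kind begins just past the limit of 5 bases.

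All 10 genes are annotated as long noncoding RNAs, and their exons hold the reads counted here. In 326 of their 352 spliced transcripts (92.6%) the frame of the first ATG ends more than 50 bases upstream of an exon junction, the layout that nonsense-mediated decay is known to act on. The share was 79.4% of 52886 transcripts of all long noncoding RNAs. By gene it was 100% of 18 transcripts in SNHG12, 97.8% of 91 in GAS5 and 94.9% of 79 in SNHG1. It was 94.3% of 87 in SNHG5, 94.1% of 17 in SNHG16 and 80% of 10 in SNHG7. The other host genes lay below the share of all long noncoding RNAs. These were SNHG8 and SNHG15 (78.6% of 14 each), SNHG6 (75% of 8) and ZFAS1 (71.4% of 14). GAS5, SNHG5 and SNHG1 hold most of the pooled transcripts. These first frames were short, with a median of 50 codons in GAS5 and 12 in SNHG5.

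RefSeq places 37 snoRNA genes inside the 10 hosts, 11 of them in GAS5 and 9 in SNHG1. Of these 37, 16 had reads in the 1 h table, and none passed the minimum of 100 reads over the 6 libraries with s4U. The most reads, 77 over 8 libraries, were those of SNORD22 in SNHG1. The host values below count reads given to the host genes, not to these snoRNA genes. They need not all come from spliced RNA, since few reads of SNHG16 and SNHG1 crossed a splice junction.

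The 8 libraries held between 22246279 and 40018063 reads of 1 gene. With s4U, 0.802% to 1.06% of T positions read in genes were converted, against 0.0504% and 0.0521% in the pair without it. Of the HEK-293 markers NEFM, NEFL, PAX2 and LHX1, all 4 were above 1 CPM (read counts scaled to library size) in every library, and of 7 markers of other tissues PTPRC, CD3E and HBB had 0 reads. COL3A1 stood at 1.603 to 3.40 CPM and GFAP at 0.534 to 1.44 CPM, and ALB and MYH7 had 21 and 4 reads in all 8 libraries. In bulk RNA, fewer cells of a kind and less RNA per cell cannot be told apart. Emetine replicate 3 stood apart from the other libraries. The SD of its gene-wise deviations from the group mean was 0.263 on the log2 scale, against 0.0908 to 0.158 in the other 5. Its deviations rose with transcript length (Spearman's rho across 10680 genes 0.76, against -0.69 in emetine replicates 1 and 2). Deviations of the 3 libraries of a group cancel by construction, so the opposite sign in replicates 1 and 2 is no separate result. The 10 host genes had a median deviation of -0.40 in emetine replicate 3, so each level is given with and without it. The part of this library in the results was not tested.

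Total RNA of SNHG12, SNHG15, SNHG1, GAS5, ZFAS1 and SNHG8 was higher in emetine replicates 1 and 2 than in every untreated library with s4U. SNHG5, SNHG6, SNHG7 and SNHG16 lay among these untreated values in at least 1 of these replicates. The share of all genes with this order was not counted. The order also leaves out emetine replicate 3, so it is a description only. With all 3 emetine libraries, groups did not overlap upward for 3 of 10 host genes and 20.5% of all genes. With all 6 libraries, 0 of the 10 host genes passed an adjusted p of 0.05 in edgeR's quasi-likelihood test, in either direction. The test called 2.65% of 13776 genes higher and 0.0436% lower. At an unadjusted p of 0.05, 4 host genes were higher (GAS5, SNHG1, SNHG12 and SNHG15) against 14.9% of all genes, and DESeq2 called 2 (SNHG12 and SNHG15) against 5.95% of all genes. The median log2 change was 0.07 over the 10 host genes and 0.03 over all genes, and 0.25 and 0.0093 without emetine replicate 3. Without emetine replicate 3, 4 of 10 were higher (GAS5, SNHG1, SNHG12 and SNHG15) and 0 lower, against 10.1% and 3.87% of 13579 genes. Values are CPM scaled by the trimmed mean of M-values (TMM), and an error is the SD of 3 libraries.

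SNHG12, which hosts SNORA44, SNORA61, SNORA16A and SNORD99, had the largest change. Its level was 12.3, 9.21 and 8.89 CPM in the untreated libraries and 25.3, 21.0 and 12.9 CPM with emetine. The groups did not overlap, though the highest untreated and the lowest emetine value were close. The means were 10.1 ± 1.89 and 19.7 ± 6.29 CPM (n = 3 each), a log2 change of 0.95 ± 0.24 (SE) that did not pass (edgeR, adjusted p = 0.0827). Without emetine replicate 3 it was 1.18 ± 0.13 (edgeR, adjusted p = 5.92e-05).

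SNHG15, the host of SNORA9, stood at 80.8, 75.4 and 95.4 CPM untreated and at 138.4, 146.8 and 96.8 CPM with emetine. The third emetine value was just above the highest untreated one, so that the groups did not overlap. The log2 change was 0.59 ± 0.17 (edgeR, adjusted p = 0.107), and 0.77 ± 0.08 without emetine replicate 3 (adjusted p = 4.25e-05).

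SNHG1, which carries the U22 snoRNA and several box C/D neighbours, was read at 198.5, 196.7 and 214.4 CPM in untreated cells, a narrow range, and at 319.9, 342.8 and 215.5 CPM with emetine. The third emetine library lay at the top of the untreated range. The log2 change was 0.51 ± 0.16 (edgeR, adjusted p = 0.148), and 0.70 ± 0.06 without that library (adjusted p = 6.74e-06).

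GAS5, growth arrest-specific 5, whose RNA is known to build up when cell growth or translation stops, was at 95.9, 87.6 and 118.2 CPM untreated and at 158.7, 157.7 and 104.5 CPM with emetine. Here the groups overlapped, since the third emetine library fell between the untreated ones. The log2 change was 0.47 ± 0.18 (edgeR, adjusted p = 0.198), and 0.65 ± 0.09 without emetine replicate 3 (adjusted p = 0.000422). Groups did not overlap, with emetine higher, for 3 of the 10 host genes (SNHG1, SNHG12 and SNHG15) and for 20.5% of all genes tested.

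**Figure D1:**
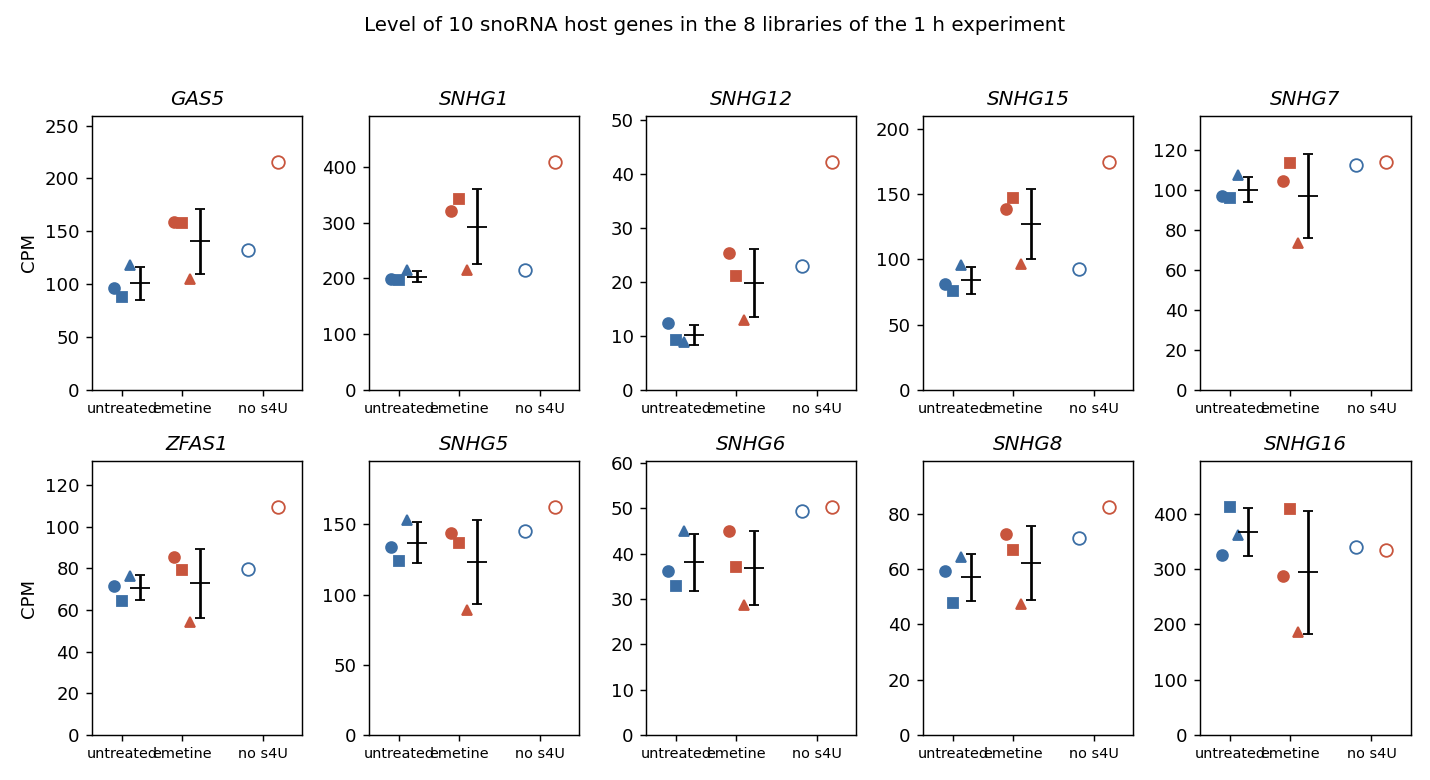
Level of each host gene (y axis, CPM, from 0, with its own scale) in the 3 untreated (blue) and 3 emetine libraries (red) with s4U, circles, squares and triangles marking replicates 1, 2 and 3, and in the pair without s4U (open circles). Black bars are the mean ± SD (n = 3). The triangle of emetine replicate 3 is the lowest red point with s4U in every panel. In GAS5, SNHG1, SNHG12, SNHG15, ZFAS1 and SNHG8 the red circle and square lie above all blue points with s4U.

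The other 6 host genes had smaller differences. ZFAS1, antisense to the start of ZNFX1, was at 71.6, 64.1 and 76.3 CPM untreated and at 85.3, 79.0 and 54.1 CPM with emetine. SNHG8, the host of SNORA24, was at 59.1, 47.7 and 64.2 CPM and then at 72.7, 66.8 and 47.2 CPM. In both genes replicates 1 and 2 lay above every untreated library with s4U and replicate 3 below the lowest. With all 6 libraries the log2 changes were 0.03 ± 0.17 for ZFAS1 and 0.12 ± 0.17 for SNHG8 (edgeR, adjusted p = 0.921 and 0.699). Without emetine replicate 3 they were 0.22 ± 0.08 for ZFAS1 (edgeR, adjusted p = 0.0683) and 0.29 ± 0.10 for SNHG8 (adjusted p = 0.0605).

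SNHG5, the host of SNORD50A and SNORD50B, was at 134.1, 123.9 and 152.8 CPM untreated and 143.8, 136.5 and 88.8 CPM with emetine. SNHG6, the host of SNORD87, was at 36.3, 32.9 and 45.0 CPM and then at 44.9, 37.1 and 28.6 CPM. SNHG7, the host of SNORA17A and SNORA17B, was at 96.9, 96.3 and 107.4 CPM and then at 104.5, 113.9 and 73.5 CPM. Groups overlapped in all 3 genes. Their log2 changes were -0.17 ± 0.18 for SNHG5, -0.06 ± 0.18 for SNHG6 and -0.05 ± 0.16 for SNHG7 (edgeR, adjusted p = 0.578, 0.868 and 0.850). The signs turned without emetine replicate 3, where the changes were 0.03 ± 0.08, 0.11 ± 0.11 and 0.12 ± 0.07 (adjusted p = 0.825, 0.559 and 0.241). Those of SNHG6 and SNHG7 also turned without untreated replicate 3 (0.083 and 0.0018).

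SNHG16, which holds SNORD1A, SNORD1B and SNORD1C, had the most reads of the 10 and stood at 325.5, 412.0 and 361.6 CPM untreated. With emetine it was read at 286.5, 408.8 and 185.3 CPM, with an SD of 112 CPM. Its log2 change was -0.33 ± 0.25 (edgeR, adjusted p = 0.423) and -0.08 ± 0.12 without emetine replicate 3 (adjusted p = 0.709).

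The pair without s4U gave 1 library for each condition, so no test was made within it. SNHG1 was at 215.7 CPM untreated and 409.2 CPM with emetine, a ratio of 1.897. SNHG15 went from 92.9 to 174.9 CPM (1.88), SNHG12 from 22.9 to 42.2 CPM (1.84) and GAS5 from 132.0 to 215.7 CPM (1.63). These were the 4 host genes with a log2 ratio over 0.5, a value passed by 4.22% of 11077 genes with at least 100 reads in both libraries. ZFAS1 followed at 1.37, and the other 5 lay between 0.981 and 1.16. The exact 95% Poisson intervals of both libraries, which cover counting error only, overlapped for SNHG6, SNHG7 and SNHG16. For SNHG12 the untreated level was 22.9 CPM (21.0 to 24.9) without s4U, above all 3 untreated libraries with it. The emetine effect with s4U minus that without was fitted as an interaction in edgeR, in which the single libraries without s4U were assumed to vary like those with it. It passed for 0 of 10 host genes and 0% of all genes, also for 0 of 10 at an unadjusted p of 0.05. With SEs of 0.31 to 0.49 on the log2 scale among the host genes, a difference of the size of the changes above was hardly detectable, so this does not show that the effects were alike.

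**Figure D2:**
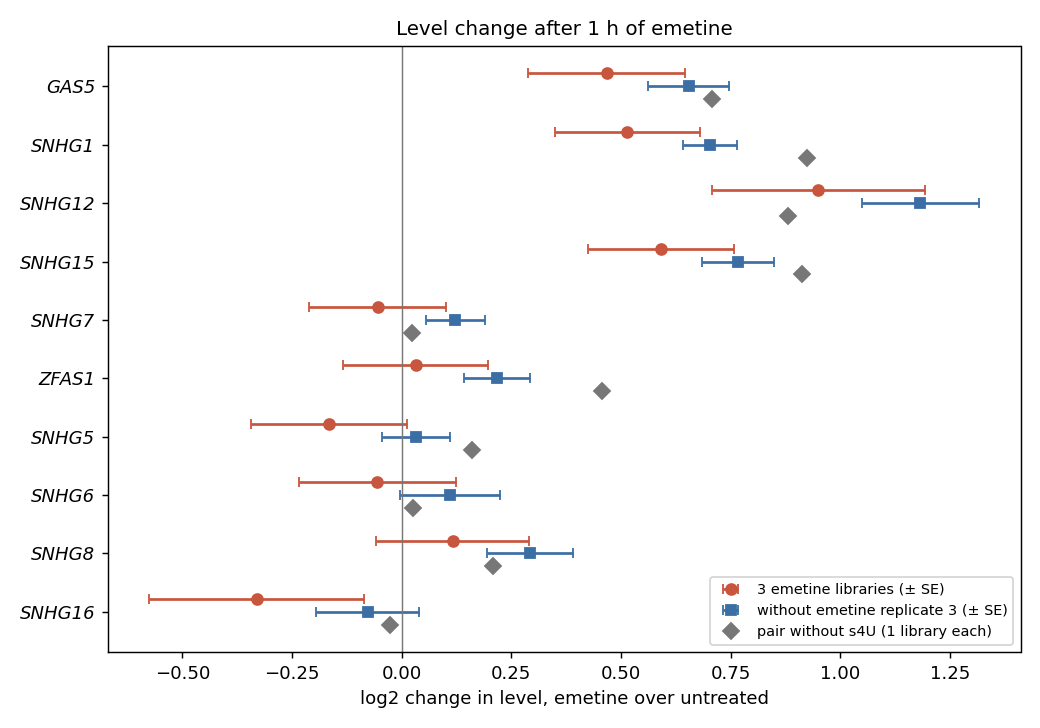
Log2 change in level of each host gene, emetine over untreated (x axis), from the fit of all 6 libraries with s4U (red, ± SE), from the fit without emetine replicate 3 (blue, ± SE) and as the ratio of the single pair without s4U (gray, no error). GAS5, SNHG1, SNHG12 and SNHG15 hold the 4 highest values in each of the 3 readouts, though the SE bars of GAS5 and SNHG8 meet in the first and ZFAS1 lies between GAS5 and SNHG8 in the last.

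The fraction new, the share of a gene's reads that came from RNA made during the 1 h, was estimated within each library from its conversions, so it does not depend on the scaling between libraries. At steady state a high share marks an RNA that is replaced fast. SNHG12 and SNHG1 were among the fastest of all genes in untreated cells, and their shares fell with emetine, as did that of SNHG7. By limma on the logit scale, 3 of 10 host genes fell (SNHG12, SNHG7 and SNHG1) and 0 rose, against 4.83% of 10763 genes that fell and 0.214% that rose. The median logit change was -0.02 over the 10 and -0.16 over all genes.

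SNHG12 had a fraction new of 84.6%, 92.6% and 85.8% in untreated cells and of 61.5%, 61.9% and 57.2% with emetine. All 3 emetine libraries, the third included, lay below the untreated ones, and groups did not overlap in this direction for 3 of 10 host genes (SNHG1, SNHG7 and SNHG12) and 16.8% of all genes. The logit change was -1.59 ± 0.27 (SE; limma, adjusted p = 3.66e-05). In the untreated libraries 66.2%, 72.5% and 62.1% of its reads had at least 2 conversions, and with emetine 43.3%, 46.9% and 43.8%. Without s4U these shares were 0% of 543 and 0.0742% of 1348 reads.

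SNHG1 fell from 76.8%, 74.8% and 78.6% to 56.0%, 56.2% and 54.5%. Replicates differed by far less than the groups in both conditions. Its logit change was -0.97 ± 0.25 (limma, adjusted p = 0.00984), lost without untreated replicate 3 or any 1 of the emetine libraries (adjusted p = 0.0592 to 0.118). SNHG7 fell from 55.5%, 61.4% and 63.4% to 34.8%, 34.6% and 36.3%, a logit change of -1.02 ± 0.23 (limma, adjusted p = 0.00268), which was lost without emetine replicate 1 or 2 (adjusted p = 0.0558 and 0.0582).

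GAS5 had 34.7%, 43.6% and 47.6% untreated and 32.2%, 29.1% and 36.7% with emetine, which overlapped (logit change -0.40 ± 0.22, limma, adjusted p = 0.383). SNHG15 had 47.4%, 54.9% and 58.6% untreated and 49.4%, 49.4% and 50.4% with emetine. Its untreated libraries spread more than the difference between the groups (logit change -0.16 ± 0.24, limma, adjusted p = 0.829). Untreated replicate 1 was the lowest in both genes, and all genes tested had a median of 9.26% in that library against 12.3% and 14.7% in the other untreated ones.

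The remaining 5 host genes had lower shares in untreated cells and small upward differences that did not pass. SNHG8 was at 34.0%, 37.6% and 34.3% untreated and 38.7%, 39.4% and 38.0% with emetine. SNHG6 was at 9.57%, 9.99% and 11.2% and then at 12.2%, 12.0% and 12.1%. In both genes the groups did not overlap, as for 2.19% of all genes in this direction, but the logit changes were 0.15 ± 0.22 and 0.19 ± 0.21 (limma, adjusted p = 0.827 and 0.746). The means of ZFAS1 were 28.2% ± 2.95 and 33.0% ± 2.49, those of SNHG5 7.74% ± 1.46 and 9.51% ± 0.785, and those of SNHG16 23.8% ± 1.02 and 26.3% ± 6.48 (SD, n = 3). The SNHG16 values hold a background that the other host genes lack. Without s4U, 2.82% of its untreated and 4.05% of its emetine reads had at least 2 conversions, against at most 0.136% for the other 9 genes. The same estimate run on that pair, chosen after seeing the data, returned 3.47% and 5.39% for SNHG16 and at most 0.176% for the others.

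If levels in untreated cells are taken as steady, these shares convert to turnover times. SNHG12 had the shortest at 19.9 ± 3.37 min (SD of 3 libraries), followed by SNHG1 at 28.6 ± 1.62 min, SNHG7 at 45.5 ± 5.27 min and SNHG15 at 54.8 ± 9.09 min, as times for the RNA pool to fall to 50% without synthesis. GAS5 followed at 78.2 ± 17.2 min and SNHG8 at 95.8 ± 6.70 min. The ranges of 1 SD overlapped for SNHG7 and SNHG15, for SNHG15 and GAS5, for GAS5 and SNHG8, and for SNHG6 (387 ± 31.8 min) and SNHG5 (531 ± 114 min), the slowest. ZFAS1 lay between at 127 ± 15.9 min. No time is given for SNHG16 because of its background without s4U. The times use all reads of a gene. In untreated SNHG1 only 19.1% of reads crossed a splice junction. Its fraction new was 67.9% in those reads and 78.7% in its other reads. In reads across a splice junction, untreated fraction new was 47.2% ± 7.18 in SNHG7 and 49.2% ± 7.60 in SNHG15. This order is the reverse of that in all reads. In their other reads it was 66.4% ± 2.53 and 62.4% ± 2.14 (SD, n = 3). Untreated SNHG12 stood at 22.9 CPM without s4U and at 10.1 ± 1.89 CPM with it. Whether its level was steady was not tested. In untreated fraction new, SNHG12 stood at the 99.7th percentile of the genes tested, SNHG1 at the 99.1st and SNHG5 at the 30.4th.

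**Figure D3:**
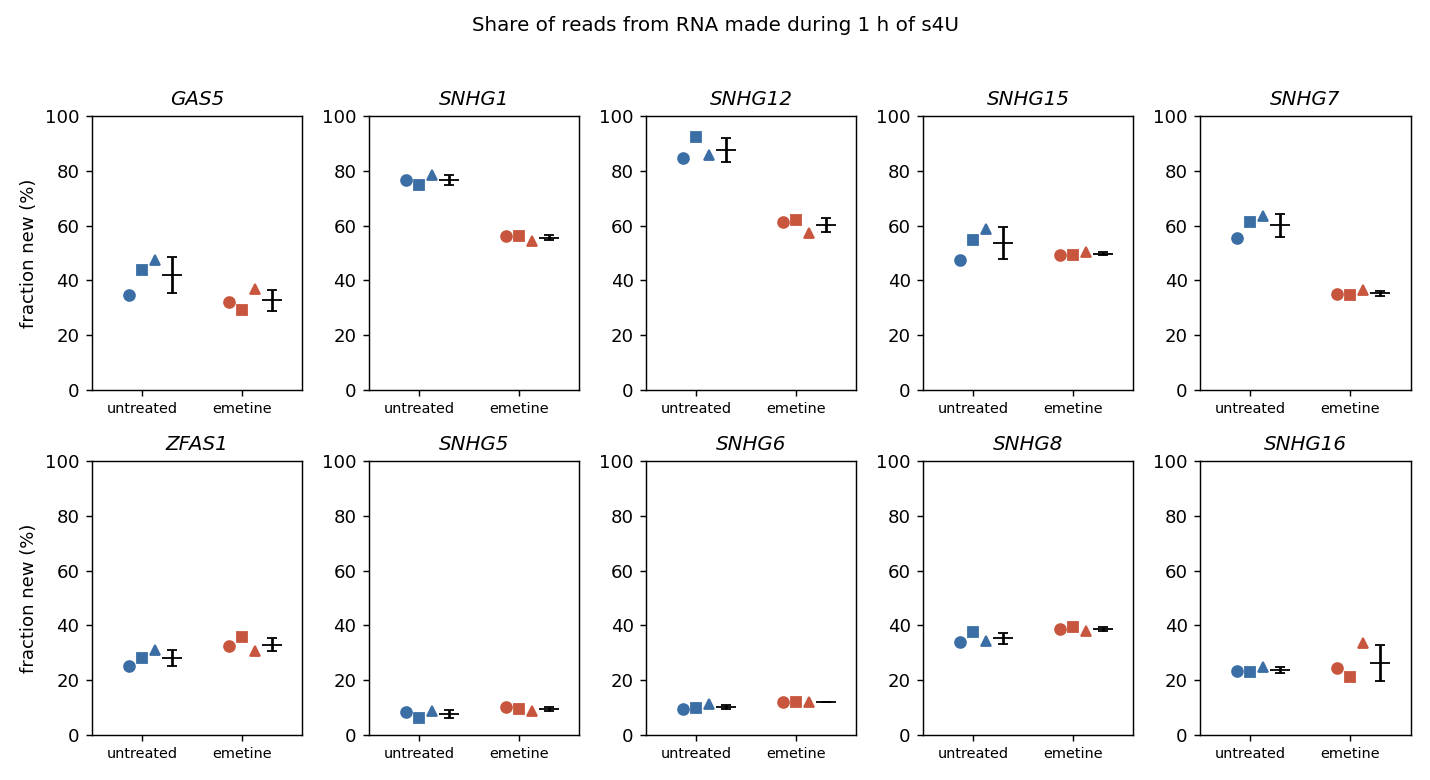
Fraction new of each host gene (y axis, percent of reads, 0 to 100) in the 3 untreated (blue) and 3 emetine libraries (red), circles, squares and triangles marking replicates 1, 2 and 3, with the mean ± SD in black (n = 3). All red points lie below all blue points in SNHG1, SNHG12 and SNHG7, and emetine replicate 3 lies beside the other emetine libraries in these 3 genes.

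Reads marked as crossing a splice junction come from spliced RNA. Their share differed widely between host genes, with means in untreated cells of 98.2% ± 0.0521 in SNHG5, 85.9% ± 2.66 in GAS5, 19.1% ± 1.43 in SNHG1 and 3.97% ± 1.00 in SNHG16 (SD, n = 3). In SNHG1 it was 26.9% ± 3.22 with emetine. In junction reads alone, the fraction new of SNHG12 was 90.0% ± 5.19 untreated and 60.2% ± 1.98 with emetine. That of SNHG1 was 67.9% ± 4.17 and 49.2% ± 1.42, and that of SNHG7 47.2% ± 7.18 and 29.2% ± 1.09. The differences of these 3 genes were thus also present in spliced RNA, given here as a description.

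The level times the fraction new gives the reads from RNA made during the treatment, and the remainder those from RNA that was there before it. Unlabeled RNA of SNHG12, SNHG1 and SNHG15 rose with emetine (3 of 10 host genes, against 7.76% of 10763 genes that rose and 0.0836% that fell, by limma on log2(CPM + 0.5)), and 0 fell. Labeled RNA fell for SNHG7 alone among the 10 (0.576% of all genes fell and 0.26% rose). The median change was 0.33 over the 10 and 0.06 over all genes for unlabeled reads, and 0.15 against -0.13 for labeled reads.

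Unlabeled SNHG12 was at 1.901, 0.686 and 1.26 CPM in untreated cells and at 9.74, 8.01 and 5.52 CPM with emetine, where every emetine library exceeded every untreated one. The log2 change was 2.24 ± 0.29 (limma, adjusted p = 0.00273). The untreated values lie near the pseudocount of 0.5 CPM, and the change was 1.56 with 2 CPM and 2.57 with 0.1 CPM (adjusted p = 0.00215 and 0.00351). Labeled SNHG12 was at 10.4, 8.53 and 7.63 CPM and then at 15.5, 13.02 and 7.38 CPM, which overlapped (log2 change 0.36 ± 0.24, limma, adjusted p = 0.610). In emetine replicate 3 the unlabeled part lay above all untreated libraries and the labeled part below them, and in replicates 1 and 2 both parts lay above.

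Unlabeled SNHG1 went from 46.1, 49.6 and 45.8 CPM to 140.6, 150.1 and 98.1 CPM, a log2 change of 1.42 ± 0.15 (limma, adjusted p = 0.00132). Labeled SNHG1 was at 152.4, 147.0 and 168.6 CPM and then at 179.3, 192.8 and 117.4 CPM, with a log2 change of 0.03 ± 0.19 (adjusted p = 0.972). In untreated cells most SNHG1 reads were labeled, and with emetine the unlabeled part was larger than in any untreated library but stayed below the labeled part.

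Unlabeled SNHG15 went from 42.5, 34.0 and 39.5 CPM to 70.1, 74.3 and 48.0 CPM (log2 change 0.70 ± 0.17, limma, adjusted p = 0.0372). The groups did not overlap, but the call was lost in every fit that left out a library other than emetine replicate 3 (adjusted p = 0.0623 to 0.174), with spike-in scaling (0.101) and with at least 500 reads in each library (0.0683). Its labeled reads had a log2 change of 0.48 ± 0.21 (adjusted p = 0.341). Both parts of SNHG15 were thus higher with emetine, though the labeled change did not pass.

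Unlabeled GAS5 went from 62.6, 49.4 and 62.0 CPM to 107.6, 111.9 and 66.1 CPM. Every emetine library was above every untreated one, but the log2 change of 0.68 ± 0.20 did not pass (limma, adjusted p = 0.0721), and it was 0.92 without emetine replicate 3 (adjusted p = 5.93e-05). Labeled GAS5 had a log2 change of 0.11 ± 0.21 (adjusted p = 0.916).

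SNHG7 had opposite differences in its parts and little in their sum. Its labeled reads went from 53.8, 59.1 and 68.1 CPM to 36.4, 39.4 and 26.7 CPM, a log2 change of -0.82 ± 0.21 (limma, adjusted p = 0.0217), which was lost when any library but untreated replicate 1 was left out, and with spike-in scaling (-0.22, adjusted p = 0.825). Its unlabeled reads went from 43.2, 37.2 and 39.3 CPM to 68.1, 74.4 and 46.8 CPM, a log2 change of 0.63 ± 0.17 that did not pass (adjusted p = 0.0525), and 0.83 without emetine replicate 3 (adjusted p = 3.88e-05). Neither part overlapped between the groups, which held downward for labeled reads of 1 of 10 host genes and 10.5% of all genes. For unlabeled reads this held in the upward direction for 5 of 10 host genes (GAS5, SNHG1, SNHG7, SNHG12 and SNHG15) and for 24.9% of all genes.

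In ZFAS1, SNHG5, SNHG6, SNHG8 and SNHG16 neither part passed. Their unlabeled log2 changes ran from -0.44 to 0.04 and their labeled ones from -0.27 to 0.25, with the background of SNHG16 without s4U counted as labeled.

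**Figure D4:**
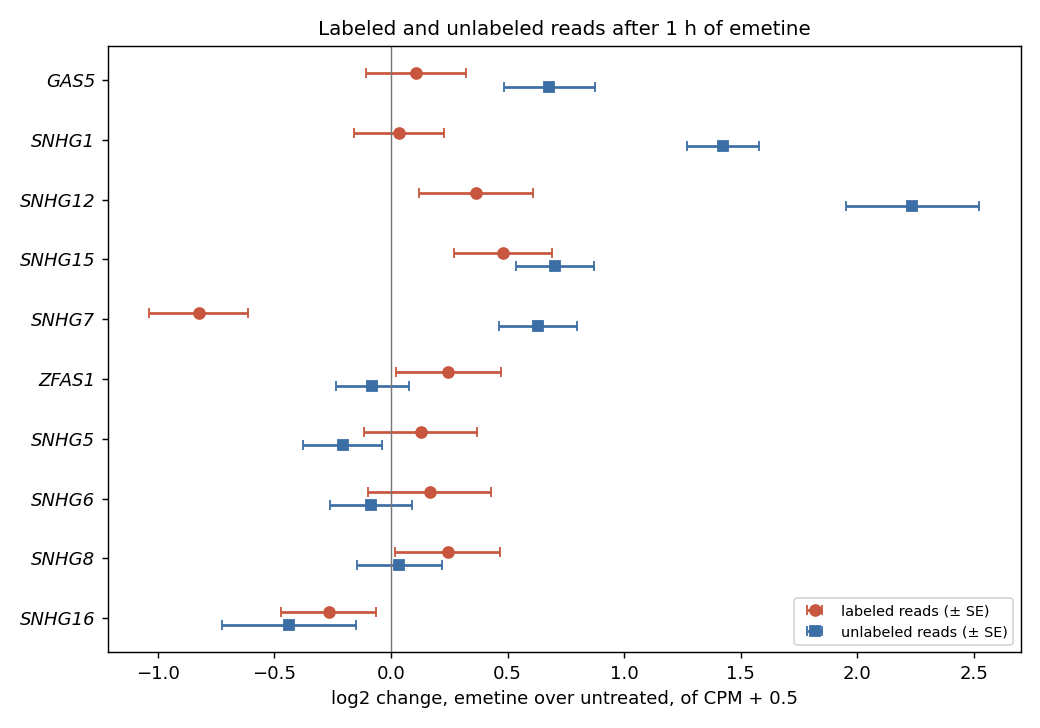
Log2 change with emetine (x axis, of CPM + 0.5, ± SE) of labeled reads (red) and unlabeled reads (blue) of each host gene. The unlabeled reads of SNHG12 and SNHG1 lie farthest to the right, at 2.24 and 1.42, and SNHG7 has its 2 values on opposite sides of 0.

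Of 14 other noncoding snoRNA hosts tested, 0 passed in level with all 6 libraries (edgeR). Without emetine replicate 3, 5 rose and 2 fell, in a fit that called 10.1% of all genes higher and 3.87% lower. SNHG17 had a log2 change of 0.84 (adjusted p = 3.69e-05), and the others that rose were EPB41L4A-AS1, C6orf48, SNHG11 and SNHG20, while SNHG3 and DANCR fell (-0.24 and -0.26). None of 13 tested for fraction new passed.

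Of 46 protein-coding snoRNA hosts, 2 rose and 1 fell with all 6 libraries (edgeR), against 2.65% and 0.0436% of all genes, and 6 rose and 3 fell without emetine replicate 3, against 10.1% and 3.87%. TAF1D, a subunit of the RNA polymerase I selectivity factor, rose by 1.02 ± 0.11 on the log2 scale (adjusted p = 0.00549). EIF4A2, an RNA helicase of translation initiation, rose by 0.69 ± 0.10 (adjusted p = 0.0152), and HSPA8, a constitutive Hsp70 chaperone, changed by -0.84 ± 0.11 (adjusted p = 0.0106). The median change of these 46 was -0.29, against 0.03 over all genes. Without emetine replicate 3 it was -0.13, against 0.0093 over all genes.

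None of the 8 proteins of the snoRNA particles and none of the 18 factors of nonsense-mediated decay passed in level with all 6 libraries (edgeR). Without emetine replicate 3, 5 decay factors rose (UPF1, SMG1, SMG8, SMG9 and DHX34, with SMG9 the most at 0.41, adjusted p = 0.00297), against 10.1% of all genes, and fibrillarin (FBL), the methyltransferase of box C/D particles, fell by 0.21 (adjusted p = 0.0310), against 3.87%. By fraction new, none of these 8 or 18 genes passed.

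By root-mean-square distance over the 8 libraries, the genes whose level followed the mean pattern of the 10 host genes most closely were P2RX4, ING2, SNHG11, CIDECP and DUSP5, at 0.0664 to 0.0940 on the log2 scale, among 10702 genes. Within the 10, the distance to their own mean ran from 0.0799 for ZFAS1 to 0.483 for SNHG12.

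For the 2 h experiment only the authors' mean of normalized counts over its libraries was used, which holds no comparison of doses. SNHG16 had the highest authors' mean at 4288, then SNHG1 at 1505, GAS5 at 774 and SNHG15 at 598. SNHG5 had 383, SNHG12 281, SNHG7 261, SNHG8 251, ZFAS1 250 and SNHG6 174, against a median of 845 over 9982 genes. These means are not scaled for transcript length. No spread over samples is given with these means, so neighbours in this order cannot be told apart.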

How the data were processed

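The 10 members and all gene lists were chosen with earlier results of these data known. The 1 h libraries came from a stranded, poly(A)-selecting kit. Adapters were trimmed (cutadapt), reads were aligned to hg38 (hisat-3n) and conversions were tallied (bam2bakR) by the authors, whose deposited table holds whole read counts by library, gene, T positions and T-to-C conversions. The annotation and the strand setting of the counting are not given in the sources used here. All members but SNHG1 and SNHG15 overlap another GENCODE 44 gene in part, mostly on the opposite strand, and of reads that fit more than 1 gene, 38 (0.153%) named a member, SNHG7. Of all reads, 16.6% to 17.9% named no gene and 0.976% to 1.09% were ambiguous, and both were left out. For the 2 h libraries the deposited signal is the authors' mean of counts divided by spike-in size factors, the same in both tables. The authors' fold changes, p-values and size factors were not used.

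Levels were tested with edgeR 4.0.16 (quasi-likelihood, TMM, genes over 100 counts in the 6 libraries with s4U). Its SE is the absolute log2 change divided by the square root of F. Fraction new was fitted per library as a mixture of 2 binomial rates, 0.0504% or 0.0521% for background and 8.49% to 9.53% for new reads, where every library had 100 reads or more, and its logit (bounded at 0.001 and 0.999) was tested with limma 3.58.1, as were labeled and unlabeled log2(CPM + 0.5). p-values were adjusted by Benjamini-Hochberg over all genes tested. Tests are two-sided. No source says that replicates came from separate cultures, so p-values measure only the spread between these samples. With 3 against 3 libraries an exact permutation test cannot go below 0.1 and was not used. The tests were tried on simulated data. The named genes were the 10 members, the called genes of each list (at most 5 per direction by p) and the 5 nearest patterns. Genes of the lists called only without emetine replicate 3 were named after their values were seen, and the start motif was chosen after the sequences were seen. DESeq2 1.42.0 served as an alternative.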

Additional observations from a re-analysis of the deposited data

How the results depend on the processing

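The number of host genes raised in level depended most on the processing. With the share of all genes called higher in the same fit, it was 0 in the fit reported (2.65%), 1 with no count filter (2.70%), 2 with DESeq2's Wald test (5.95%), 3 in 8 libraries with a term for s4U (4.67%), 4 with length and GC trends removed (5.65%, and 5.30% lower), 0 to 4 when a library was left out (0.0294% to 10.1%), and 6 in 8 libraries with a term for s4U without emetine replicate 3 (10.9%), a fit chosen after seeing the data that also called ZFAS1 and SNHG8. The number with a lower fraction new was 3 (4.83% of all genes), and 1 to 4 when a library was left out (0.873% to 23.5%, with 4 host genes and 23.5% both without untreated replicate 1). SNHG12 was not tested with at least 500 reads in each library. The number with fewer labeled reads was 1 (0.576% of all genes) and 0 with spike-in scaling (0%). It was 0 to 1 when a library was left out (0.0186% to 15.7%, with 1 host gene and 15.7% both without untreated replicate 1). The number with more unlabeled reads was 3, 1 with at least 500 reads in each library (3.37% of all genes), and 2 to 5 when a library was left out (2.63% to 14.1%, against 7.76%). The number with fewer unlabeled reads was 0 (0.0836% of all genes), and 0 to 1 when a library was left out (0.0279% to 2.91%). The 1 was SNHG16, at -0.76 without emetine replicate 2, a fit that called 0.492% of all genes lower. The cause was not tested.

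Spike-in reads were 236732, 213771 and 199699 in the untreated libraries with s4U and 126672, 325443 and 120560 in the emetine libraries. Scaled by them, the level changes of the host genes had SEs of 0.451 to 0.493, against 0.156 to 0.245 in the fit reported. Whether total RNA changed with emetine was not tested. Spike-in scaling moved the median log2 change of all genes to 0.71. Under it the signs turned for the level of SNHG5 (0.53), SNHG6 (0.68), SNHG7 (0.60) and SNHG16 (0.23), for labeled SNHG16 (0.34) and for unlabeled ZFAS1 (0.53), SNHG5 (0.40), SNHG6 (0.52) and SNHG16 (0.17), all below that shift. Removing length and GC trends turned the level of ZFAS1 (-0.10) and SNHG8 (-0.078). Lengths in that fit were those of 1 GENCODE transcript per gene, 4526 bases for ZFAS1 and 6166 for SNHG8. Whether these lengths match the RNA read here was not tested. The 8-library fit without emetine replicate 3 turned SNHG5 (0.065), SNHG6 (0.080) and SNHG7 (0.088).

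When a library was left out, log2 changes in level ran from -0.10 to 0.22 for ZFAS1, -0.29 to 0.032 for SNHG5, -0.22 to 0.11 for SNHG6, -0.19 to 0.12 for SNHG7 and -0.012 to 0.29 for SNHG8. The logit change of fraction new of SNHG16 ran from -0.064 to 0.26. Log2 changes of labeled reads ran from -0.049 to 0.32 for GAS5, -0.10 to 0.25 for SNHG1 and -0.093 to 0.39 for SNHG5. Those of unlabeled reads ran from -0.21 to 0.096 for ZFAS1, -0.33 to 0.0048 for SNHG5, -0.24 to 0.082 for SNHG6 and -0.11 to 0.21 for SNHG8.

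Same-numbered libraries did not deviate together (correlations 0.07, -0.01 and -0.17). These deviations are from means of 3 libraries and are widest in emetine replicate 3. The correlations therefore cannot tell whether the numbers pair the libraries. With the replicate number as a block, 0 host genes were raised in level (0.544% of all genes) and 3 had a lower fraction new (6.01%). In the same fits 1 had fewer labeled reads (0.623% of all genes) and 2 had more unlabeled reads (2.70%). SNHG15 was the one lost among unlabeled reads (limma, adjusted p = 0.119). Depth limits SNHG12 most, at 190 to 882 reads per library with s4U.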
